A study of Mus musculus with 24 samples.

Results

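Methionine restriction (MR) was compared with the control diet (Con) in the livers of mice whose hepatocytes lack NRF2, using all 6 libraries of the group NRF2 KO MR and all 6 of the group NRF2 KO Con, 12 of the 24 libraries of the study. All 13336 genes that passed the filter on low counts, of 15160 counted, were compared. The NRF2 KO mice were male Nfe2l2 fl/(Alb) C57BL/6 mice, in which Cre under the albumin promoter removes exon 5 of Nfe2l2, so that hepatocytes lose it and the other cells of the liver keep it. Their floxed littermates without Cre form the groups WT Con and WT MR and carry the same loxP sites. Con held 0.86% and MR 0.17% methionine, both without cysteine. The diets began at 8 weeks of age. The labels give 8 weeks of feeding, after which the study's methods place calorimetry and a recovery period, and livers were taken after a 4 h fast from mice labelled 5 months old. Each mouse gave 1 QuantSeq library, in which reads come from the 3′ end of each transcript. Depth ran from 10974196 to 21191031 counts on genes in NRF2 KO Con (median 15514868) and from 11909252 to 21776490 in NRF2 KO MR (median 16173154). Values below are counts scaled by edgeR's TMM factors to a library of 1000000 (CPM) and, unless said otherwise, are the lowest, the median and the highest of the 6 mice of a group.

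Methionine is an essential amino acid that also supplies the methyl groups of the cell and, by transsulfuration through cystathionine, its cysteine and glutathione. A shortage of an amino acid leaves its transfer RNA uncharged, which activates the kinase GCN2, slows translation and raises the synthesis of the transcription factor ATF4, which turns on genes of amino acid synthesis, import and tRNA charging. NRF2, the product of Nfe2l2, is the transcription factor that responds to oxidants and electrophiles and turns on genes of glutathione use, quinone reduction and drug conjugation.

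The deleted gene was read first. Reads counted on Nfe2l2 came to 228, 273 and 339 CPM in NRF2 KO Con and 202, 228 and 249 CPM in NRF2 KO MR. The groups overlapped, and the log2 fold change of MR over Con was -0.31 (SE 0.20, edgeR adjusted p = 0.34), called only without the library WT CON_7607 (-0.31, edgeR adjusted p = 0.016) or in a fit of the 12 NRF2 KO mice alone (edgeR adjusted p = 0.039). The 5 WT MR mice in the fit had 94.0 to 107 CPM, fewer than any NRF2 KO mouse. The 3′ reads of this gene thus do not show the loss of exon 5. Their level still separated the genotypes in the fit, apart from the library named next. The library labelled WT CON_7607, with 324 CPM, lay in the range of NRF2 KO Con, while the other 4 WT Con mice in the fit had 106 to 125 CPM. WT CON_7607 was kept as WT unless said otherwise, and whether its label is right was not tested. The study checked the genotypes by real time PCR of liver RNA. With primers in exon 5 it reported less Nfe2l2 mRNA in NRF2 KO than in WT liver, and ascribed the remainder most likely to liver macrophages.

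Of the 12 libraries, 3 stood apart from their groups in part of the transcriptome. On the first principal component, which held 17.1% of the variance of the 24 mice, NRF2 KO CON_7622 and CON_7623 lay at 13.5 and 1.38, while the other 4 NRF2 KO Con mice lay between -62.4 and -39.2 and the NRF2 KO MR mice between 36.4 and 56.0. Both had a low share of counts on Gm42418, a locus that overlaps ribosomal RNA, with 0.55% and 1.26% against 1.61% to 3.24% in the other 4 and 1.33% to 1.88% on MR. Their mitochondrial ribosomal RNA, mt-Rnr1 and mt-Rnr2, held 2.06% and 3.24% of counts against 3.95% to 5.33% in the other 4 and 2.84% to 3.46% on MR. Malat1 and Neat1 separated the diets, with 0.17% to 0.21% of counts on Con and 0.23% to 0.28% on MR. Mitochondrial protein genes held 10.03% to 12.31% on Con and 8.39% to 10.58% on MR. The part of these differences in the results was not tested. NRF2 KO MR_7632 was the third, and is described with the sex-biased genes. Some counts that moved without these mice are given beside the result.

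In NRF2 KO liver MR changed 1677 genes at an adjusted p under 0.05 (quasi-likelihood test of edgeR, adjusted by Benjamini-Hochberg), 12.6% of those tested. Of these genes, hereafter called, 831 rose (6.23%) and 846 fell (6.34%), and 304 (2.28%) changed at least 2-fold. In lists of at least 9 genes given below without a share, 20.7% (fatty acid synthesis and storage) to 76.9% (ATF4 pathway enzymes) were called. For 727 genes (5.45%) the 6 MR mice did not overlap the 6 Con mice, and 655 of these were called. Without NRF2 KO CON_7622 and CON_7623 the called genes numbered 2584, with 1395 higher. Over all 24 mice, including the WT outliers left out of the fit, they numbered 1216, with 666 higher. Scaling by library size alone moved the median log2 fold change of all genes to 0.15 and the calls to 2397 higher and 388 lower, so directions below are relative to the centre that TMM sets, and groups whose balance depends on it are named. In whole liver, fewer cells of a type and less RNA per cell cannot be told apart.

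**Figure D1:**
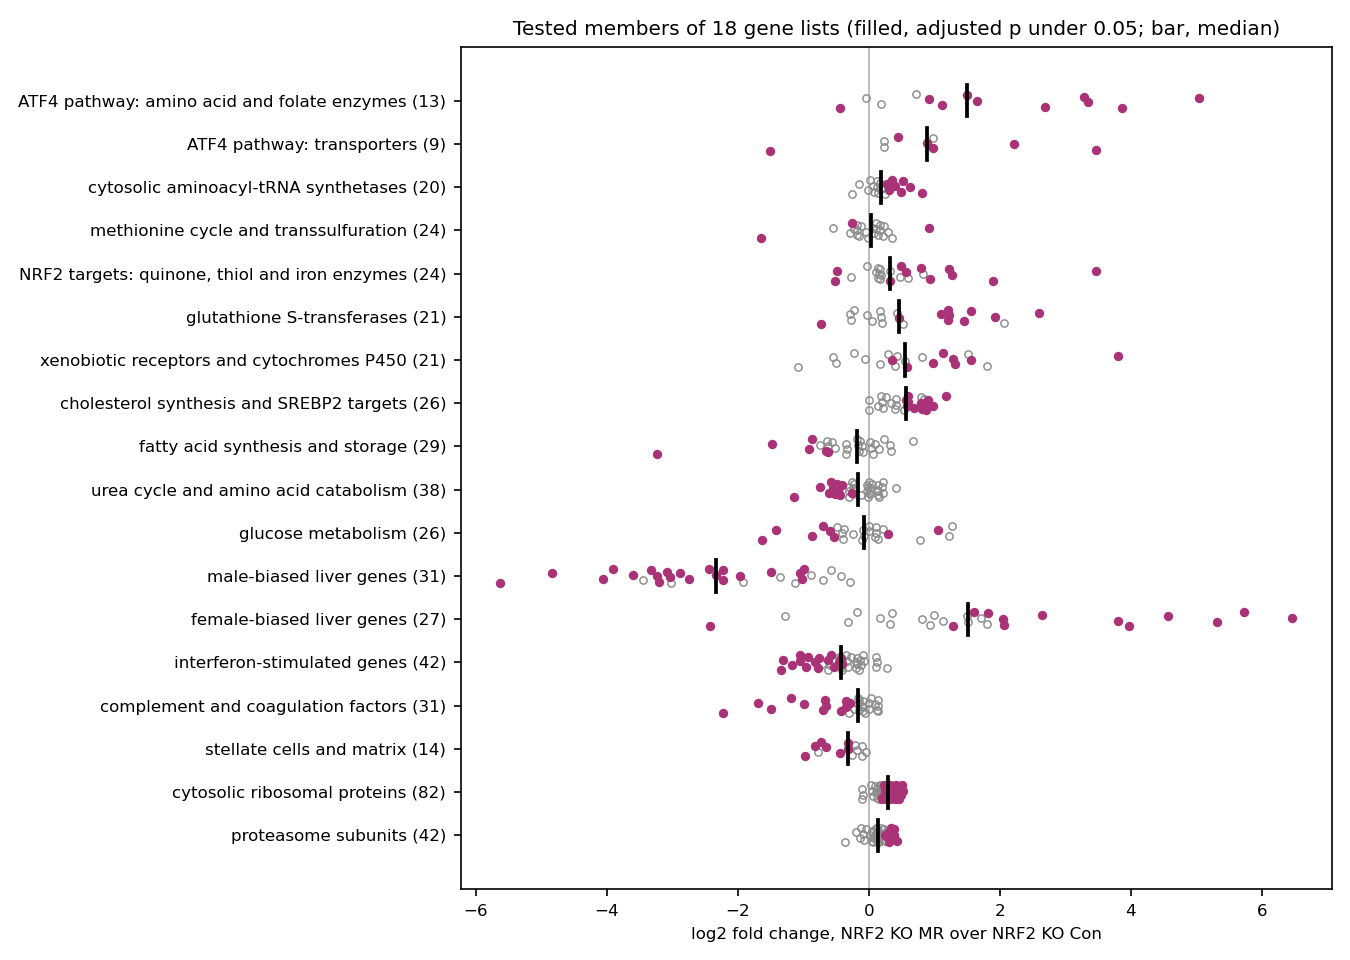
Log2 fold change of NRF2 KO MR over NRF2 KO Con (x axis) for each tested member of 18 gene lists, with the number of members in brackets. Filled points passed an adjusted p of 0.05 in edgeR's test, open points did not, and black bars are medians. The female-biased genes (median 1.52) and the ATF4 pathway enzymes (median 1.499) have the highest medians shown and the male-biased genes (median -2.33) the lowest.

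Of 13 enzymes of amino acid and folate metabolism in the ATF4 pathway, 9 rose and 1 fell, with a median log2 fold change of 1.499, beside -0.0042 over all genes. Asns, which makes asparagine, had 1.38, 4.50 and 5.89 CPM on Con and 46.3, 60.2 and 77.0 CPM on MR. The highest Con mouse was far below the lowest MR mouse, and the log2 fold change was 3.86 (SE 0.22, edgeR adjusted p = 5.9e-10). The serine pathway, which runs from a glycolytic intermediate through Phgdh, Psat1 and Psph, rose at every step. Psat1, its transaminase, had 0.69, 2.36 and 3.63 CPM on Con and 18.2, 24.1 and 26.3 CPM on MR, with no overlap (log2 fold change 3.29, SE 0.22, edgeR adjusted p = 3.4e-09). Phgdh, its first enzyme, was at 0, 0.066 and 0.45 CPM on Con and at 2.71, 3.01 and 5.07 CPM on MR. Its log2 fold change of 5.05 (SE 0.52, edgeR adjusted p = 2.1e-06) rests on few Con reads and was 5.95 without NRF2 KO CON_7622. Psph, the phosphatase that ends the pathway, rose by 1.12 on the log2 scale.

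Mthfd2 and Aldh1l2, mitochondrial enzymes of the folate cycle, which carries the carbon units made from serine, rose without overlap between the diets. Mthfd2 went from 1.17, 3.45 and 4.68 CPM to 8.25, 22.4 and 31.3 CPM (log2 fold change 2.68, SE 0.35, edgeR adjusted p = 9.1e-05). Aldh1l2, which releases formyl groups from folate as carbon dioxide, went from 0, 0.42 and 0.55 CPM to 2.51, 3.19 and 4.09 CPM (log2 fold change 3.35, SE 0.32). Of the enzymes of proline synthesis, Pycr1 rose by 1.66 and Aldh18a1 by 1.499 on the log2 scale. Cth, which splits cystathionine to cysteine and belongs both here and to transsulfuration, had 92.6, 122 and 205 CPM on Con and 208, 240 and 289 CPM on MR. Its 2 groups only just failed to meet, and the log2 fold change was 0.92 (SE 0.15, edgeR adjusted p = 0.0005).

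Among 14 regulators of the pathway 4 rose and 1 fell (35.7%, beside 12.6% of all genes). Atf4 itself had 153, 157 and 196 CPM on Con and 194, 205 and 233 CPM on MR, a log2 fold change of 0.34 (SE 0.09, edgeR adjusted p = 0.013) with 4 of 6 MR mice above every Con mouse. Trib3, a pseudokinase that ATF4 induces and that restrains it, rose from 5.82, 9.20 and 12.99 CPM to 16.3, 21.98 and 28.1 CPM (log2 fold change 1.23, SE 0.17, edgeR adjusted p = 0.00011). Eif2ak3, the gene of the kinase PERK, which reaches ATF4 from the endoplasmic reticulum, rose by 0.94. Its MR mice lay above all Con mice.

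Of 9 amino acid transporters 5 rose and 1 fell (66.7%, beside 12.6% of all genes). Slc7a1, a carrier of cationic amino acids, had 0.74, 1.09 and 1.36 CPM on Con and 2.39, 4.03 and 8.58 CPM on MR (log2 fold change 2.21, SE 0.30, edgeR adjusted p = 7.9e-05). Slc3a2, the heavy chain that several of these carriers share, rose by 0.98 without overlap. Slc7a11, the cystine importer that pairs with it, was at 0, 0.17 and 0.26 CPM on Con and at 0.14, 1.41 and 4.56 CPM on MR, so that 1 MR mouse stayed within the Con range (log2 fold change 3.48, SE 0.74, edgeR adjusted p = 0.0042). Over all 24 mice, with the 2 WT mice left out here as outliers included, the calls of Slc7a11 (edgeR adjusted p = 0.26) and Trib3 (edgeR adjusted p = 0.074) were lost. With sample weights over all 24 mice Slc7a11 was not called either (2.91, limma adjusted p = 0.23). With limma on the deposited normalized values its log2 fold change was 2.75.

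Of 12 other effectors of ATF4, 5 rose and none fell. Chac1, which breaks down glutathione, had 1.65, 3.502 and 5.36 CPM on Con and 8.86, 10.5 and 28.4 CPM on MR (log2 fold change 2.16, SE 0.37, edgeR adjusted p = 0.00095). Fgf21, a hormone that the liver secretes when dietary protein is low, had 2.71, 5.53 and 13.1 CPM on Con and 9.29, 21.4 and 63.4 CPM on MR (log2 fold change 2.11, SE 0.55, edgeR adjusted p = 0.017). For Chac1 the diets separated fully, while for Fgf21 the ranges met and 4 of 6 MR mice lay above every Con mouse. Vldlr, a lipoprotein receptor, rose by 1.99 without overlap. Of the 20 cytosolic aminoacyl-tRNA synthetases, which charge tRNAs, 8 rose and none fell, with a median of 0.18.

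**Figure D2:**
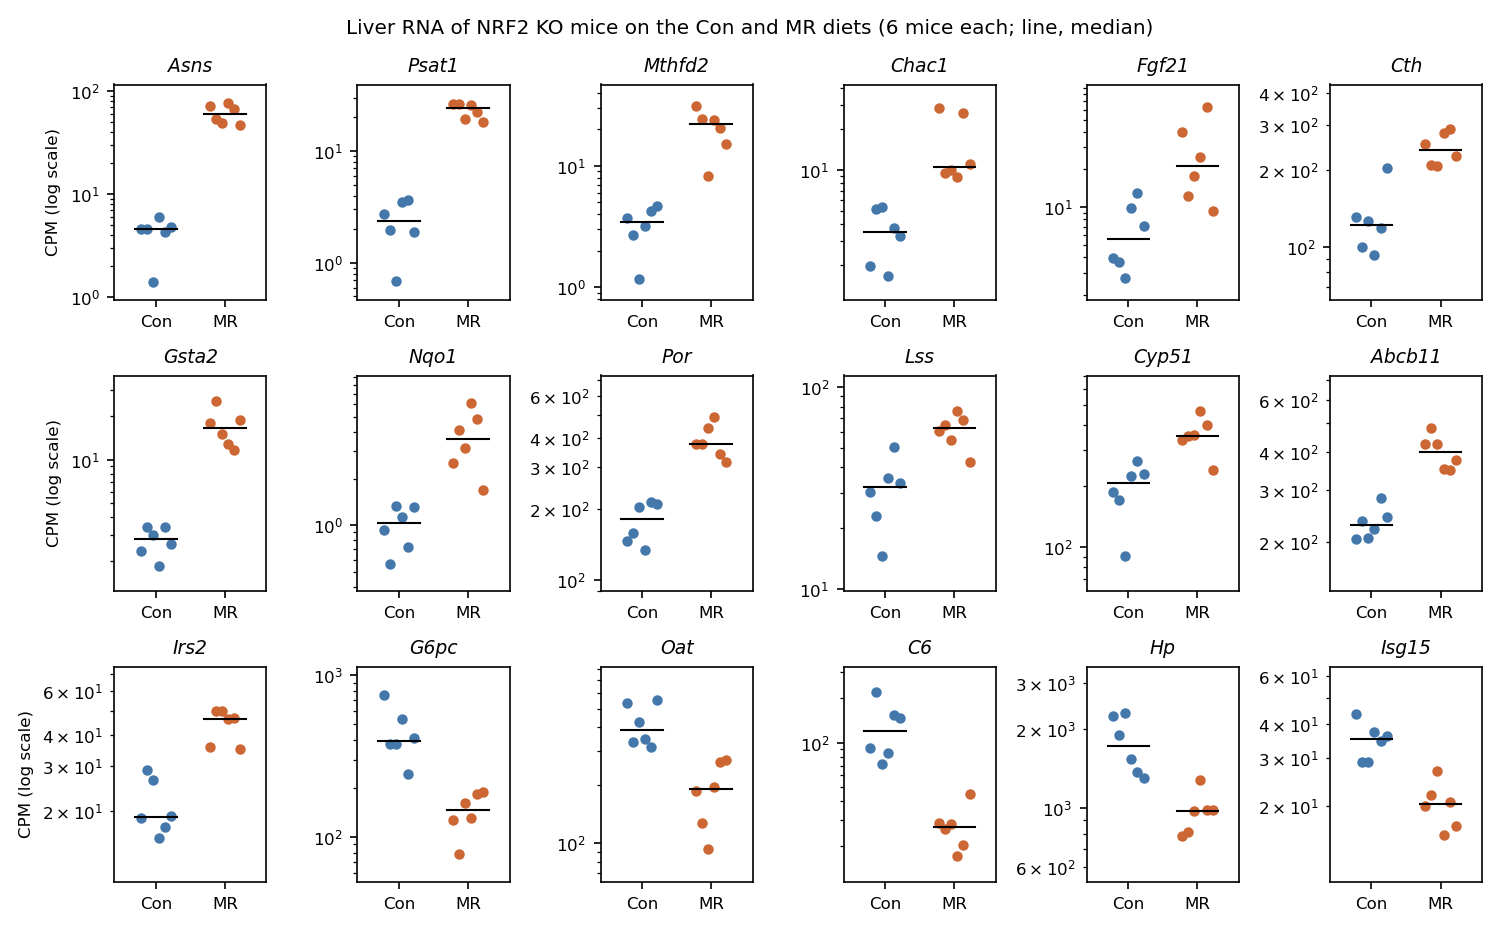
CPM of 18 genes in each NRF2 KO mouse (log axis), Con in blue and MR in orange, with the median of 6 mice as a line. For Asns the Con mice reach 5.89 CPM and the MR mice start at 46.3 CPM; for C6 the Con mice start at 72.1 CPM and the MR mice reach 44.8 CPM.

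Promoter sequences from RefSeq (GRCm38.p6), from 250 bases before to 50 after each gene's start, were searched on both strands for TGATGNAA, the core of the element that ATF4 binds with C/EBP partners. Of 42 genes of the 4 ATF4 lists with a promoter in the table, 13 held the letters (31.0%), and of the 18 that rose, 7 did (38.9%). Among all 9936 tested genes with a promoter, 289 did (2.91%). A match is a description of the window and not a test of binding. The matches of the members described above are shown in capitals, 5′ to 3′ on the strand of the gene, with 40 bases on either side or up to the start of the gene.
Asns (chr6:7693210-7693272, minus strand): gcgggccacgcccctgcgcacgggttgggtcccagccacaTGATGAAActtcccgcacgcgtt
Chac1 (chr2:119351009-119351096, plus strand): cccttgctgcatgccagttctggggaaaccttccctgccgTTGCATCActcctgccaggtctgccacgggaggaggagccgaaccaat
Fgf21 (chr7:45615582-45615669, minus strand): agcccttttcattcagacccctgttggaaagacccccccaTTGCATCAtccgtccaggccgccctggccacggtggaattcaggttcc
Slc7a11 (chr3:50443614-50443719, minus strand): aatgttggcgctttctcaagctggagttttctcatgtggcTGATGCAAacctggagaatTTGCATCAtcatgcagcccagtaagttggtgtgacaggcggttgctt
Pycr1 (chr11:120643804-120643891, minus strand): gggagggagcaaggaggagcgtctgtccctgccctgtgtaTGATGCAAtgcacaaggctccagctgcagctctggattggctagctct
The match began 23 bases before the start in Asns, 193 in Chac1, 139 in Fgf21 and 103 in Pycr1. Slc7a11 held 2 matches, 66 and 47 bases before the start.

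The methionine cycle and transsulfuration changed little as a group: of 24 genes, 1 rose and 2 fell, a share of 12.5% beside 12.6% of all genes. The one that rose was Cth. Nnmt, which spends methyl groups of S-adenosylmethionine on nicotinamide, had 6.63, 19.6 and 32.9 CPM on Con and 2.24, 5.597 and 10.3 CPM on MR (log2 fold change -1.65, SE 0.43, edgeR adjusted p = 0.017). Its ranges overlapped, with 3 of 6 MR mice below every Con mouse. Of 14 genes of cysteine use and glutathione synthesis 5 rose and 1 fell (42.9%, median 0.11). Gclc, the catalytic subunit of the first step of glutathione synthesis, had 125, 247 and 276 CPM on Con and 159, 193 and 216 CPM on MR. It was not called (log2 fold change -0.26, SE 0.17, edgeR adjusted p = 0.33). Without NRF2 KO CON_7622 and CON_7623 Gclc was called lower (-0.46, edgeR adjusted p = 0.024).

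Of the 46 gene lists, the male-biased and the female-biased genes had the medians farthest from 0. Male mouse liver receives growth hormone in pulses and female liver almost steadily, which sets a large group of genes higher in one sex. All 12 mice were male. Of 31 male-biased genes 21 fell and none rose, with a median log2 fold change of -2.33, and of 27 female-biased genes 12 rose and 1 fell, with a median of 1.52. In WT the medians were -1.23 and 1.11, and the interaction of genotype and diet in edgeR's test was called for no gene of either list, with an unadjusted p under 0.05 for 5 male-biased and 3 female-biased genes. Hsd3b5, a steroid dehydrogenase of male liver, had 38.5, 107 and 190 CPM on Con and 0.41, 0.91 and 20.1 CPM on MR (log2 fold change -4.84, SE 0.94, edgeR adjusted p = 0.0027). Mup3, one of the major urinary proteins that carry pheromones, had 4829, 6497 and 7966 CPM on Con and 54.7, 509 and 3315 CPM on MR (log2 fold change -2.87, SE 0.83, edgeR adjusted p = 0.031). The diets did not overlap for either gene, and the highest MR value was that of NRF2 KO MR_7632. Elovl3, a fatty acid elongase, fell by 3.23 and Cyp4a12b, a fatty acid hydroxylase, by 3.59 on the log2 scale. Mup11 fell by 5.62, Serpina12 fell by 3.71 and Serpina3k fell by 2.43, all without overlap.

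On the female-biased side Cyp2a4, a steroid hydroxylase, had 0.36, 1.82 and 11.3 CPM on Con and 29.3, 191 and 205 CPM on MR (log2 fold change 5.73, SE 1.19, edgeR adjusted p = 0.0044). Cyp2a22 had 1.27, 6.94 and 12.8 CPM on Con and 31.6, 119 and 149.6 CPM on MR (log2 fold change 3.98, SE 0.57, edgeR adjusted p = 0.00025). Cux2, a repressor found in female liver, had 0.28, 0.44 and 0.74 CPM on Con and 0.75, 11.1 and 19.2 CPM on MR (log2 fold change 4.57, SE 0.89, edgeR adjusted p = 0.0027). In the 3 genes the groups did not overlap, for Cux2 only by a small margin. Ntrk2, a neurotrophin receptor listed as female-biased, went the other way and fell by 2.42 on the log2 scale, a call lost with limma on the deposited normalized values. The Mup, Cyp2a, Cyp4a and Serpina3 genes have near-identical relatives between which the counting could have split reads, so their single values are uncertain.

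NRF2 KO MR_7632 lay closer to Con than the other MR mice did in these lists. Among the called genes it was the MR mouse nearest to Con for 21 of 21 male-biased and 11 of 13 female-biased genes, and also for 12 of 12 called genes of cholesterol synthesis, but for 3 of 10 called ATF4 pathway enzymes. Relative to the mean of the Con mice, its mean log2(CPM + 1) over the male-biased list was -0.85, while the other 5 MR mice had -3.25 to -2.11. For the ATF4 pathway enzymes it had 1.08, inside the range of the other 5, 0.97 to 1.46. Without it 25 male-biased genes fell, with a median of -2.91, the log2 fold changes of Hsd3b5, Mup11, Mup3 and Elovl3 were -7.02, -8.04, -3.98 and -3.83, and 1572 genes of all tested were called. That of Mup11 was -4.62 without NRF2 KO CON_7618, that of Cyp2a4 was 6.62 without NRF2 KO CON_7622, and the call of Mup3 was lost without NRF2 KO CON_7618 or without any 1 of NRF2 KO MR_7625, MR_7627, MR_7628 and MR_7631, and over all 24 mice. With sample weights over all 24 mice the calls of Cyp2a4 (limma adjusted p = 0.055) and Cux2 (limma adjusted p = 0.068) were lost. These weights gave log2 fold changes of -6.25 for Hsd3b5, -6.98 for Mup11 and -3.74 for Mup3. With limma on the deposited normalized values the 3 were -6.06, -6.60 and -3.82.

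**Figure D3:**
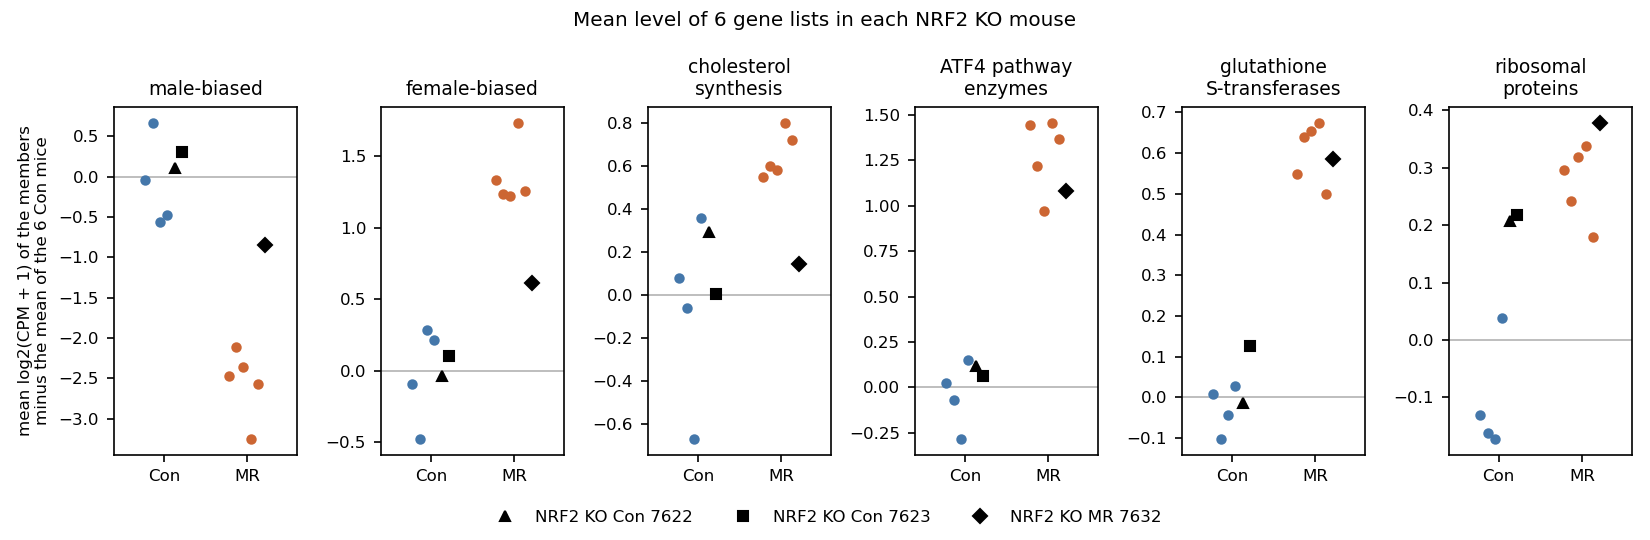
Mean log2(CPM + 1) of the tested members of 6 gene lists in each NRF2 KO mouse, minus the mean of the 6 Con mice, with Con in blue, MR in orange and 3 mice marked in black. NRF2 KO MR_7632 (diamond) lies between the diets for the male-biased genes, at -0.85, and among the MR mice for the ATF4 pathway enzymes, at 1.08.

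Of 19 genes of growth hormone signalling and the IGF1 axis 2 rose and 3 fell (26.3%, beside 12.6% of all genes). Ghr, the growth hormone receptor, had 402, 483 and 559 CPM on Con and 202, 248 and 418 CPM on MR (log2 fold change -0.81, SE 0.15, edgeR adjusted p = 0.0013). Egfr, the receptor of epidermal growth factor, whose level in liver depends on growth hormone, had 191, 227 and 390 CPM on Con and 70.7, 98.6 and 173 CPM on MR (log2 fold change -1.22, SE 0.26, edgeR adjusted p = 0.0043). Igf1, the main hormone that growth hormone induces, had 1072, 1319 and 1395 CPM on Con and 825, 960 and 1253 CPM on MR (log2 fold change -0.38, SE 0.10, edgeR adjusted p = 0.016). The diets separated for Egfr only, and the call of Igf1 was lost with library size scaling and without NRF2 KO CON_7622 and CON_7623 (both edgeR adjusted p = 0.051). The 2 that rose were Lepr, the leptin receptor, by 0.88, and Cux2.

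Of 26 genes of cholesterol synthesis 12 rose and none fell (median 0.57, in WT 0.35). Relative to the mean of the Con mice, the mean log2(CPM + 1) over these genes was 0.55 to 0.80 in 5 MR mice and 0.14 in NRF2 KO MR_7632, which lay inside the Con range of -0.67 to 0.36. Without that mouse 15 rose and none fell, with a median of 0.66. Lss, which closes the ring system of the first sterol, lanosterol, had 14.6, 31.9 and 50.3 CPM on Con and 42.5, 62.5 and 75.9 CPM on MR (log2 fold change 0.98, SE 0.24, edgeR adjusted p = 0.012). Cyp51, which demethylates lanosterol, had 90.9, 206 and 266 CPM on Con and 240.1, 354 and 468 CPM on MR (log2 fold change 0.88, SE 0.23, edgeR adjusted p = 0.015). For each of them 5 of 6 MR mice lay above every Con mouse. Hmgcs1, an early enzyme of the pathway, was not called (0.84, edgeR adjusted p = 0.13). Without NRF2 KO CON_7621, which had the highest Con value of 1321 CPM, it was (1.23, edgeR adjusted p = 0.018). In the same promoter windows TCACNCCAC, letters of the sterol regulatory element, was found in 1 of 18 cholesterol genes (5.56%). It was in none of the 8 called ones with a promoter and in 143 of all 9936 genes (1.44%).

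Several NRF2 target genes rose in NRF2 KO liver. Of 24 targets among quinone, thiol and iron enzymes, 9 rose and 2 fell, with a median of 0.32, and in WT the median was 0.57. The 9 include Slc7a11, also counted among the amino acid transporters, whose call was lost over all 24 mice. The promoter windows were also searched for TGACNNNGC, letters of the antioxidant response element of NRF2 target genes. They were found in 4 of the 21 targets of this list with a promoter (19.0%). Of the 10 called targets with a promoter 1 held them, and of all 9936 genes 1661 did (16.7%). Nqo1, which reduces quinones, had 0.56, 1.03 and 1.33 CPM on Con and 1.70, 3.62 and 6.15 CPM on MR (log2 fold change 1.90, SE 0.34, edgeR adjusted p = 0.0011). Ephx1, an epoxide hydrolase, had 65.4, 86.0 and 114 CPM on Con and 136, 164 and 179 CPM on MR (log2 fold change 0.93, SE 0.17, edgeR adjusted p = 0.0011). Cbr1, a carbonyl reductase, had 80.7, 116 and 165 CPM on Con and 171, 203 and 255 CPM on MR (log2 fold change 0.80, SE 0.21, edgeR adjusted p = 0.016). None of these 3 overlapped between the diets. In the study's qPCR, however, the diets did not differ significantly in NRF2 KO for any of these 3. The same held there for Gsr, Gsta2, Mgst3, Trib3 and Atf4, while Asns, Psat1, Fgf21, Vldlr and Cyp4a14 rose. The cause of these differences between the measures was not tested. Gsr, glutathione reductase, rose by 0.49. Cat, the catalase of peroxisomes, fell by 0.52. Sod2 and Txnrd1, the mitochondrial superoxide dismutase and a thioredoxin reductase, had log2 fold changes of 0.17 and 0.11 and were not called, but both were called higher with library size scaling. Aox1, an aldehyde oxidase, had every MR mouse above every Con mouse and missed the threshold (0.83, edgeR adjusted p = 0.054), which it passed in 9 of the other fits, among them those without WT CON_7602, CON_7607 or CON_7608 (edgeR adjusted p = 0.030, 0.0015 and 0.048).

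Glutathione S-transferases, which attach glutathione to electrophiles, rose for 9 of 21 members and fell for 1 (median 0.46). Gsta2 had 1.85, 2.83 and 3.45 CPM on Con and 11.6, 16.5 and 25.3 CPM on MR (log2 fold change 2.60, SE 0.41, edgeR adjusted p = 0.00051). Gsta4, which clears products of lipid peroxidation, had 16.7, 29.9 and 44.1 CPM on Con and 58.3, 89.9 and 123 CPM on MR (log2 fold change 1.56, SE 0.29, edgeR adjusted p = 0.0017). Both separated the diets, as did Mgst3, a microsomal member that rose by 1.22, whereas Gstm3 rose by 1.93 with overlap. Mgst1, another microsomal member, fell by 0.72, and Gsta2 and the Gstm genes have close relatives that could share reads. Of 21 xenobiotic receptors and cytochromes P450, 8 rose and none fell (median 0.55). Por, the reductase that supplies electrons to all microsomal P450 enzymes, had 134, 181 and 215 CPM on Con and 315, 376 and 489 CPM on MR (log2 fold change 1.13, SE 0.22, edgeR adjusted p = 0.0021). Ugdh, which makes the UDP-glucuronic acid used in conjugation, rose by 1.06. Of the 13 UDP-glucuronosyltransferases none rose and 2 fell, a share of 15.4% beside 12.6% of all genes, with a median of -0.11 in NRF2 KO and 0.27 in WT. Ugt2b1 had 185, 283 and 391 CPM on Con and 73.4, 80.5 and 113 CPM on MR (log2 fold change -1.71, SE 0.22, edgeR adjusted p = 8.2e-05).

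The effect of MR was then compared with that in WT (5 against 5 mice, WT CON_7607 among them) through the interaction of genotype and diet. It was called for 6 genes (0.045%), while an unadjusted p under 0.05 was found for 1008. The 6 became 12 without WT CON_7607, 11 without NRF2 KO MR_7632, 12 without NRF2 KO CON_7622 and CON_7623 and 33 with DESeq2, and ranged from 3 to 12 with single mice left out. Among the 24 quinone, thiol and iron targets 9 had an unadjusted p under 0.05 and none was called. Such a p was also found for 7 of 13 UDP-glucuronosyltransferases, 9 of 23 circadian clock genes and 21 of 82 cytosolic ribosomal proteins, again with none called, and for 7 of 20 immediate early genes, Junb among those called. The medians in NRF2 KO and WT were 0.04 and 0.17 for the clock genes and 0.29 and 0.50 for the ribosomal proteins. Nqo1 had a log2 fold change of 1.74 in WT beside 1.90 in NRF2 KO, a difference of 0.16 (edgeR adjusted p = 0.97), and Gsta2 had 2.89 beside 2.60. Cbr1 had 1.81 in WT and 0.80 in NRF2 KO, a difference of -1.002 (SE 0.31, edgeR adjusted p = 0.41). For Ugt2b1 the log2 fold change was -0.04 in WT, and the difference of -1.66 missed the threshold (SE 0.32, edgeR adjusted p = 0.064). A p that misses the threshold does not show that the genotypes responded alike.

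Of the genes with a called interaction 5 are described. Abcc4, a pump of organic anions, had 2.05 to 3.11 CPM in WT Con and 16.7 to 35.0 CPM in WT MR, against 2.13, 2.70 and 3.05 CPM in NRF2 KO Con and 2.13, 3.93 and 7.07 CPM in NRF2 KO MR. It thus separated the diets widely in WT, and in NRF2 KO the ranges overlapped (difference -2.60, SE 0.35, edgeR adjusted p = 0.0020). In NRF2 KO its log2 fold change of 0.62 was not called (edgeR adjusted p = 0.10), except without NRF2 KO MR_7625 (0.75, edgeR adjusted p = 0.038) and with library size scaling. Nrxn2, a gene of a synaptic adhesion protein, rose by 1.58 in WT and had -0.15 in NRF2 KO, where it was not called (difference -1.73, SE 0.26, edgeR adjusted p = 0.0024). Abcg2, a pump of urate and drugs, had 55.0, 62.2 and 67.6 CPM in NRF2 KO Con and 35.2, 38.6 and 43.5 CPM in NRF2 KO MR and fell by 0.68, while WT had -0.03 (difference -0.65, SE 0.12, edgeR adjusted p = 0.023). Junb, an AP-1 subunit, rose by 0.55 in NRF2 KO and fell by 0.69 in WT (difference 1.24, SE 0.18, edgeR adjusted p = 0.0020). Rell1 had 0.28 in NRF2 KO and -0.44 in WT (difference 0.72, SE 0.14, edgeR adjusted p = 0.041). Over all 24 mice the interactions of Abcc4, Nrxn2 and Rell1 were lost. With 1 mouse left out that of Abcg2 was lost in 7 fits (WT CON_7603, WT MR_7611 and MR_7616, NRF2 KO CON_7617 and CON_7618, NRF2 KO MR_7625 and MR_7628; adjusted p 0.050 to 0.071 from edgeR) and that of Rell1 in 15, and it was also lost with library size scaling.

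**Figure D4:**
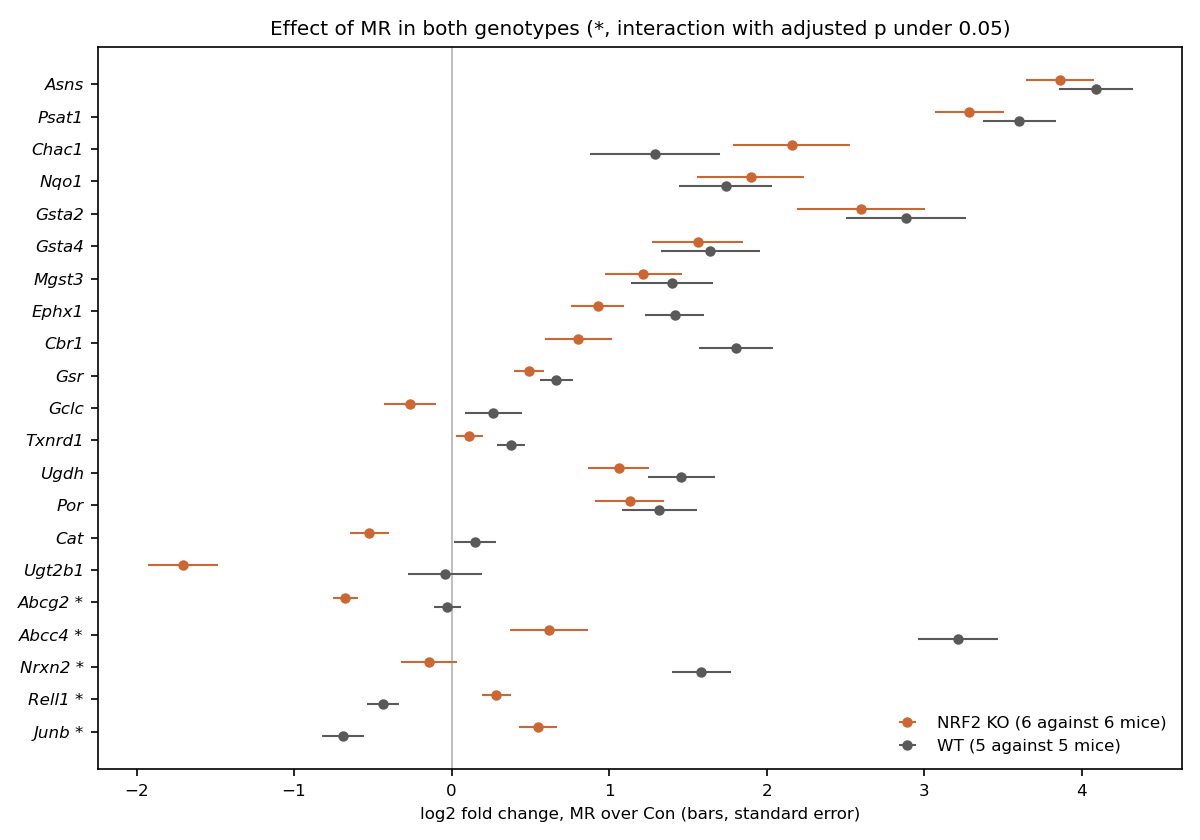
Log2 fold change of MR over Con with its standard error for 21 genes in NRF2 KO (orange) and WT (grey), with an asterisk where the interaction was called. The points of Asns, Nqo1 and Gsta2 lie close together, and those of Abcc4 lie apart, at 0.62 and 3.22.

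Fatty acid synthesis and storage genes fell for 6 of 29 members and rose for none (median -0.17, in WT -0.64). Elovl5, an elongase of unsaturated fatty acids, had 591, 994 and 1942 CPM on Con and 465, 627 and 675 CPM on MR (log2 fold change -0.92, SE 0.21, edgeR adjusted p = 0.0072), with 2 of 6 MR mice below every Con mouse. Targets of PPAR-alpha, the receptor that turns on fatty acid oxidation, were split, with 4 of 32 higher and 6 lower (31.2%, beside 12.6% of all genes). With library size scaling 7 were higher and 1 lower. Without NRF2 KO CON_7622 and CON_7623 9 were higher and 5 lower. Acot3, a thioesterase of peroxisomes, had 11.7, 46.9 and 71.3 CPM on Con and 104, 133 and 224 CPM on MR (log2 fold change 1.61, SE 0.42, edgeR adjusted p = 0.017). Cyp4a31 rose by 2.01, and by 2.78 without NRF2 KO CON_7622 and CON_7623. Cyp4a14, a fatty acid hydroxylase, was not called with 227, 1177 and 2766 CPM on Con and 2242, 2483 and 2805 CPM on MR (1.002, edgeR adjusted p = 0.19), and was called without these 2 mice (1.73, edgeR adjusted p = 0.027).

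Glucose metabolism genes fell for 6 of 26 members and rose for 2 (30.8%, beside 12.6% of all genes). G6pc, which releases free glucose from its phosphate, had 246, 394 and 755 CPM on Con and 78.5, 148 and 188 CPM on MR (log2 fold change -1.63, SE 0.27, edgeR adjusted p = 0.00079). Irs2, an adaptor of the insulin receptor, had 15.5, 18.9 and 29.1 CPM on Con and 35.1, 46.4 and 49.9 CPM on MR (log2 fold change 1.06, SE 0.18, edgeR adjusted p = 0.00060). G6pc thus fell and Irs2 rose, each without overlap. Of 38 genes of the urea cycle and amino acid catabolism 11 fell and none rose, which became 8 lower and 2 higher with library size scaling. Over this list NRF2 KO MR_7632 lay 0.06 above the Con mean in log2(CPM + 1), while the other 5 MR mice had -0.28 to -0.14, and without it 10 genes fell. Oat, which degrades ornithine, had 316, 385 and 551 CPM on Con and 93.6, 191 and 271 CPM on MR (log2 fold change -1.14, SE 0.25, edgeR adjusted p = 0.0050). Glul, glutamine synthetase, fell by 0.57, a call lost over all 24 mice (edgeR adjusted p = 0.19).

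Bile acid genes were mixed, with 4 of 23 higher and 2 lower (26.1%, beside 12.6% of all genes). Cyp39a1, which hydroxylates an oxysterol on the way to bile acids, had 9.76, 12.1 and 16.7 CPM on Con and 35.3, 54.1 and 63.0 CPM on MR (log2 fold change 2.07, SE 0.19, edgeR adjusted p = 1.6e-06). Cyp8b1, which sets the share of cholic acid, had 164, 283 and 589 CPM on Con and 58.1, 76.1 and 207 CPM on MR (log2 fold change -1.56, SE 0.42, edgeR adjusted p = 0.019). Abcb11, the bile salt export pump, had 205, 229 and 282 CPM on Con and 349.8, 402 and 483 CPM on MR (log2 fold change 0.80, SE 0.12, edgeR adjusted p = 0.00012). Cyp39a1 and Abcb11 separated the diets, and Cyp8b1 did not.

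Of 42 interferon-stimulated genes 16 fell and none rose (median -0.42, in WT -0.65), and the balance was 13 lower and 1 higher with library size scaling. Ifit1, which binds viral RNA, had 15.1, 24.4 and 35.1 CPM on Con and 5.43, 9.04 and 13.97 CPM on MR (log2 fold change -1.31, SE 0.37, edgeR adjusted p = 0.026). Isg15, a ubiquitin-like modifier, had 29.0, 35.4 and 43.5 CPM on Con and 15.7, 20.4 and 26.9 CPM on MR (log2 fold change -0.78, SE 0.21, edgeR adjusted p = 0.017). Neither overlapped, though the call of Ifit1 was lost without any 1 of NRF2 KO MR_7625, MR_7627, MR_7629 and MR_7631 (edgeR adjusted p = 0.051 to 0.063). That call was also lost without NRF2 KO CON_7622 and CON_7623 (-1.03, edgeR adjusted p = 0.088). Oasl1 fell by 1.34 and Ifi44 fell by 1.178. Of 25 antigen presentation genes 5 fell and 1 rose (3 and 3 with library size scaling), among them Tap1, the peptide transporter, by 0.67 and B2m, the light chain of class I molecules, by 0.51. In the same promoter windows the letters GAAANNGAA, the core of the element that interferon signals use, were found in 21 of 30 interferon-stimulated genes with a promoter (70.0%) and in 880 of all 9936 (8.86%). The windows of Ifit1 and Isg15 each held 3 partly overlapping matches, in capitals.
Ifit1 (chr19:34640740-34640853, plus strand): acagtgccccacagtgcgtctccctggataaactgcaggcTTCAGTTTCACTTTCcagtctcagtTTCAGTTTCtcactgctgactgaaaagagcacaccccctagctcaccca
Isg15 (chr4:156200836-156200936, minus strand): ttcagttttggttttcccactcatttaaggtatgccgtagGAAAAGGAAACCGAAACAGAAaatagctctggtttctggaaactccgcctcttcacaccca

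Of 29 acute phase proteins 9 fell and 3 rose. Orm1, an orosomucoid that binds drugs in plasma, had 217, 372 and 409 CPM on Con and 37.7, 71.6 and 133 CPM on MR (log2 fold change -2.13, SE 0.47, edgeR adjusted p = 0.0069). Hp, haptoglobin, had 1307, 1725 and 2313 CPM on Con and 783, 978 and 1277 CPM on MR (log2 fold change -0.88, SE 0.15, edgeR adjusted p = 0.00040). Saa1 and Saa2, whose sequences are near-identical, fell by 2.10 and 2.68. Apcs, the serum amyloid P component, rose by 1.22, and was not called without NRF2 KO MR_7629 (0.78, edgeR adjusted p = 0.051). Its call was also lost without NRF2 KO CON_7622 and CON_7623 (1.14, edgeR adjusted p = 0.055) and in a fit of the NRF2 KO mice alone (edgeR adjusted p = 0.064). Of 31 complement and coagulation factors 12 fell and none rose, which became 7 lower and 4 higher with library size scaling. Relative to the Con mean NRF2 KO MR_7632 had -0.11 in mean log2(CPM + 1), inside the Con range of -0.18 to 0.13, and the other 5 MR mice had -0.56 to -0.32. Without it 12 genes of the list fell as well. C6, a part of the membrane attack complex, had 72.1, 119.98 and 219 CPM on Con and 16.9, 27.0 and 44.8 CPM on MR (log2 fold change -2.23, SE 0.33, edgeR adjusted p = 0.00034). C8a, of the same complex, fell by 1.499, and F11, coagulation factor XI, fell by 1.182.

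Markers of other cells of the liver were checked beside these groups. Of 14 genes of stellate cells and matrix 7 fell and none rose (2 lower with library size scaling), among them Col3a1 by 0.82, a call lost over all 24 mice. Their summed level was 694 to 805 CPM on Con and 580.05 to 690.5 CPM on MR, with Dcn the most abundant. Of 16 markers of Kupffer cells and macrophages 5 fell, among them Clec4f by 0.42 (none was called with library size scaling), and their sums were 670 to 955 and 590 to 768 CPM, with Slc40a1 the most abundant. Of 14 endothelial markers 2 rose (14.3%, beside 12.6% of all genes), among them Kdr by 0.24. Of 7 bile duct markers 1 was called, also 14.3%, and the median was -0.24. It was Sox9, the most abundant of them, which fell by 1.03, the largest change of the 7. Of 11 hepatocyte markers none rose and 2 fell (18.2%). In edgeR's test no marker of B cells (8), T and NK cells (7) or neutrophils (3) was called in either direction, and 2, 1 and 0 of them had an unadjusted p under 0.05, beside 3641 of all 13336 genes. The part of cell composition in the falls of the immune genes was not tested.

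Of 82 cytosolic ribosomal protein genes 42 rose and none fell, with a median of 0.29, and without NRF2 KO CON_7622 and CON_7623 the number was 65. Rpl36a had 208, 239.7 and 329 CPM on Con and 317, 369.7 and 394 CPM on MR (log2 fold change 0.53, SE 0.10, edgeR adjusted p = 0.0011). Rpl12 had 125, 139.5 and 217 CPM on Con and 200.5, 222 and 232 CPM on MR (log2 fold change 0.51, SE 0.12, edgeR adjusted p = 0.0051). In the list as a whole NRF2 KO CON_7622 and CON_7623 lay at 0.21 and 0.22 above the Con mean, inside the MR range of 0.18 to 0.38. These genes have many processed copies in the genome that could share reads, and the shares of Gm42418 and mitochondrial ribosomal RNA given above moved with them. Their part in this result was not tested. Of 77 mitochondrial ribosomal protein genes 5 rose and 2 fell, a share of 9.09% beside 12.6% of all genes. Of 77 subunits of oxidative phosphorylation 1 rose and 3 fell (5.19%), or 9 without NRF2 KO MR_7632. The one that rose was Cox6a2, the heart and muscle form of a subunit of cytochrome oxidase, with 0, 0.21 and 0.49 CPM on Con and 1.49, 3.49 and 5.59 CPM on MR (log2 fold change 3.98, SE 0.39, edgeR adjusted p = 8.2e-07).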

How the data were processed

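The authors sequenced liver RNA as QuantSeq 3′ libraries, and mapped and counted reads with the kit maker's commercial pipeline (build GRCm38 and DESeq2 1.18.1 in R 3.4.3 in the submitters' notes). The count values used are the raw counts as deposited. The signal values, deposited by the authors, are these counts over 1 DESeq2 size factor per mouse, and served an alternative. Symbols came from GENCODE M21.

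Counts were tested with edgeR 4.0.16 in R 4.3.3: TMM, filtering by expression, robust quasi-likelihood F-tests, 1 mean for each of 4 groups. WT CON_7604 and WT MR_7612 lay farthest from their groups on the first 2 principal components and were not fitted, which left 22 mice. The study also left out 2 outliers, a WT Con and a WT MR sample, without giving their numbers in its text. Genes were called at a Benjamini-Hochberg adjusted p of 0.05. The alternatives used limma 3.58.1, DESeq2 1.42.0, other scalings and filters, other sets of mice and each mouse left out in turn. Figures used matplotlib 3.10.9. The model was also run on simulated counts in which no mouse was set apart from its group. That run cannot show how the model handles the libraries that stood apart here. Labels and paper give no batch, so none was modelled. Intervals cover the spread between mice, each sequenced once.

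The gene lists were compiled from general knowledge, and they and the comparison were chosen with earlier results of these data known. Genes were named as the 10 largest rises and falls with at least 1 CPM and no overlap, the up to 4 called members of each list with the largest change and at least 1 CPM (the 2 most abundant where under 2 were called), genes with a called interaction, genes of the study's qPCR, and the deleted gene. Members whose call was lost with several single mice left out are counted but, apart from Ifit1, Mup3 and Rell1, not named, and some genes that meet the rule are not reported here. Psph, Mthfd2, Pycr1, Aldh18a1, Slc7a11, Mup3, Ntrk2, Igf1, Cat, Por, Mgst1, Hmgcs1, Abcb11, Isg15, Saa1, Hp and Apcs fall outside the rule and were chosen after their values were seen. Within the last 500 bases of Aldh1l2, Elovl3, Cyp51, Cox6a2, Rpl22l1, Pdia6 and Junb an exon of another gene lies on the opposite strand, and within those of Ephx1 on the same strand, so reads there are uncertain.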

Additional observations from a re-analysis of the deposited data

Results flagged for a closer look

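In a group of 6 mice a value counts as standing apart when its gap to the nearest other mouse, over the range of the group, exceeds Dixon's critical value of 0.625. Gaps and ranges were taken on log2(CPM + 1), and the values below are in CPM. Of 204 groups tested (102 genes, both diets) 18 held such a value, where chance gives about 5% or 10.2. NRF2 KO MR_7632 accounted for 9 of them. It had 38.1 CPM of Mup11, 20.1 CPM of Hsd3b5 and 257 CPM of C8a, above the other MR mice, and 29.3 CPM of Cyp2a4, 31.6 CPM of Cyp2a22, 0.75 CPM of Cux2, 35.3 CPM of Cyp39a1 and 46.0 CPM of Txnrd1, below them. It was also highest for Nat8f7, with 0.136 CPM. For Txnrd1, whose diets did not differ in the test, the other MR mice had 50.0 to 52.1 CPM.

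Among the other MR mice, MR_7628 was lowest for H2-Q10 (1342 CPM) and MR_7625 for Junb (30.2 CPM). Among the Con mice, CON_7620 was lowest for Asns (1.38 CPM), and CON_7622 was highest for Phgdh (0.454 CPM) and Gadd45b (2.27 CPM). NRF2 KO CON_7618 was highest for Egfr (390 CPM, with the other 5 at 191 to 244) and lowest for Acot3 (11.7 CPM). NRF2 KO CON_7617 was highest for Oasl1 (8.54 CPM) and lowest for Kdr (77.2 CPM).

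By the interaction term of edgeR's test, the log2 fold change of MR over Con differed between NRF2 KO and WT for Junb (difference of log2 fold changes, NRF2 KO minus WT, 1.24), Rell1 (0.72), Abcg2 (-0.65), Nrxn2 (-1.73) and Abcc4 (-2.60). In NRF2 KO and WT the log2 fold changes were 0.55 and -0.69 for Junb, while for Abcc4 they were 0.62 and 3.22. The call was lost for Rell1 in 15 and for Abcg2 in 7 of the fits with 1 mouse left out.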

How the results depend on the processing

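The 1677 called genes became 2785 with library size scaling and 2584 without NRF2 KO CON_7622 and CON_7623 (chosen after seeing the data). Over all 24 mice they became 1216 in the same test and 2693 with sample weights. With 1 mouse left out they ran from 1188 (without NRF2 KO MR_7629) to 2027 (without NRF2 KO CON_7622). The 304 genes changed at least 2-fold became 149 with at least 10 counts required in every mouse, and 260 to 357 with 1 mouse left out. The 6 called interactions became 33 with DESeq2, 12 without NRF2 KO CON_7622 and CON_7623, and 3 to 12 with 1 mouse left out: 10 or more without WT CON_7605, CON_7607 or CON_7608, WT MR_7613 or NRF2 KO MR_7632, and 3 without WT MR_7611 or MR_7616, NRF2 KO CON_7617 or CON_7618, or NRF2 KO MR_7625. The cause was not tested. Of the 93 named genes called in NRF2 KO, 80 kept their call in every fit that tested them, and low genes such as Phgdh were not tested with at least 10 counts required in every mouse. The sign turned only for Nrxn2 in NRF2 KO, not called in either, at 0.015 with library size scaling. No paired analysis was possible because each mouse has its own number and no number is shared between the groups. Genes with few reads on one diet, such as Phgdh, Slc7a11 and Cox6a2, have imprecise fold changes, and whether the mice shared litters or extraction days is not given in the sources used here.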

Other observations

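Of 42 subunits of the proteasome, which degrades ubiquitin-tagged proteins, 10 rose and none fell. The median log2 fold change was 0.15 and in WT 0.02, and 28 rose with library size scaling. Over this list NRF2 KO MR_7632 lay 0.06 above the Con mean in log2(CPM + 1), and the other 5 MR mice 0.12 to 0.23 above it. Psmc6, Psma7 and Psmb4 rose by 0.43, 0.39 and 0.39 on the log2 scale. Of 21 chaperones and foldases of the endoplasmic reticulum 5 fell and 1 rose (3 and 2 with library size scaling). Pdia6, a protein disulfide isomerase, had 351, 384 and 448 CPM on Con and 182, 229.9 and 288 CPM on MR and fell without overlap (log2 fold change -0.79, SE 0.11, edgeR adjusted p = 0.00011). Of 16 heat shock proteins 4 rose and 1 fell, and without NRF2 KO CON_7622 and CON_7623 8 rose and none fell. Of 12 cell cycle genes none rose and 2 fell (16.7%, beside 12.6% of all genes), among them Rrm2, a subunit of ribonucleotide reductase, by 1.22, and of 23 circadian clock genes 1 rose and 1 fell (8.7%).

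Of 20 immediate early genes 5 rose and 1 fell, and their median was 0.26 in NRF2 KO and -0.23 in WT. Gadd45b, a stress-inducible gene, had 0.57, 0.94 and 2.27 CPM on Con and 3.39, 6.32 and 10.7 CPM on MR (log2 fold change 2.67, SE 0.37, edgeR adjusted p = 0.00012), beside 2.44 in WT. Slc22a26, a gene of the organic anion transporter family with close relatives that could share reads, had 0.72, 1.63 and 3.72 CPM on Con and 13.9, 20.9 and 35.8 CPM on MR, with no overlap. Nat8f7, also with close relatives, had 0.545, 1.98 and 3.52 CPM on Con and was listed at 0 in most MR mice, with at most 0.136 CPM. Of 24 hepatokines 2 rose and 5 fell (29.2%, beside 12.6% of all genes). Of 9 NADPH and pentose phosphate enzymes 1 rose and 2 fell (33.3%). Of 5 markers of red blood cells 1 fell, and a single gene is too few to set against the share of all genes. Of 4 markers shared with adipocytes none was called in edgeR's test, with 2 at an unadjusted p under 0.05, as had 3641 of all 13336 genes. The 1 tested marker of pancreatic acinar cells, Cela1, fell by 1.43, and 7 others of that list were not tested for low counts.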
